A study of Mus musculus with 10 samples.

Results

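Expression of 9 transcription factors of the myeloid lineage was followed in hypertrophied (hypHSC) and quiescent (qHSC) hepatic stellate cell preparations from mouse liver. The factors were PU.1 (*Spi1*), *Cebpa*, *Cebpb*, *Maf*, *Runx1*, *Mitf*, *Tfec*, *Bhlhe40* and *Bhlhe41*, taken by gene symbol from the 25233 genes with a symbol, and each symbol matched 1 gene. RNA was sequenced in 10 libraries from C57BL/6J mice, 5 per group. The hypHSCs came from mice fed CDAHFD, a high-fat diet without choline on which the liver develops steatohepatitis with fibrosis. hypHSC 1 and 2 were taken after 13 weeks of diet, at 19 weeks of age, and hypHSC 3, 4 and 5 after 12 weeks, at 18 weeks. The qHSCs came from mice on standard diet, aged 36 weeks (qHSC 1, 2 and 5) or 34 weeks (qHSC 3 and 4). Both cell types were prepared by enzymatic dissociation, density gradient and cytometric sorting, hypHSCs on green and qHSCs on blue autofluorescence. Diet, age, dissociation conditions and gate changed together and cannot be told apart. A library is 1 preparation, and neither the labels nor the methods say which mouse it came from. The hypHSC preparations were picked for the highest RNA integrity among more samples than mice, so libraries may share a mouse. The p-values therefore measure the spread between these preparations.

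Blood and tissue macrophages are built by a small circuit of such factors. PU.1, an ETS family protein, opens macrophage enhancers together with C/EBPα and C/EBPβ. RUNX1 acts early in blood formation and cooperates with PU.1 at myeloid promoters. MITF and TFEC belong to the MiT/TFE family, which drives genes of lysosomes and of osteoclasts, and MITF is also the master regulator of pigment cells. c-MAF shapes mature resident macrophages and their complement genes. BHLHE40 and BHLHE41 are repressors that bind E-box DNA, act on the circadian clock and sustain self-renewal of some tissue macrophages.

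Because stellate cells are not of myeloid origin, the label of the cells was first compared with marker genes. The 10 markers of quiescent stellate cells, *Lrat* and *Colec11* among them, summed to 810326 to 1472120 normalized counts in qHSCs and 7924 to 21715 in hypHSCs. A normalized count is a read count divided by the size factor of its library. The 13 core macrophage markers, *Cd68*, *Lyz2* and *Tyrobp* among them, summed to 1065870 to 1573490 in hypHSCs. In qHSCs they summed to 116124 in qHSC 4, 51292 in qHSC 1 and 6608 to 11175 in the other 3 libraries. For hypHSCs, the high macrophage markers go against the label. Low markers of quiescent stellate cells do not by themselves, since the label does not call these cells quiescent. Markers of activated stellate cells were not examined here. By immunolabelling, the study found desmin, cRBP1 and αSMA in sorted hypHSCs, and more CD68 labelling than in qHSCs. Among qHSCs, qHSC 4 and qHSC 1 stood apart from the others. In bulk RNA, more cells of a type and more RNA per cell cannot be told apart. Hepatocyte markers were at 69285 to 113159 in hypHSCs and 58485 to 121405 in qHSCs. Depth on genes with a symbol was 30534719 to 43283589 reads in hypHSCs and 35640104 to 47317028 in qHSCs. Mitochondrial genes took 2.21% to 12.8% of the reads in hypHSCs and 1.25% to 1.61% in qHSCs. How far the marker content, the mitochondrial share or the age of the mice bears on each factor was not tested.

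Of the 9 factors, 7 were higher in hypHSCs as differentially expressed genes (DEGs), none was lower, and *Maf* and *Bhlhe40* were not DEGs. Genes counted as DEGs where limma gave a log2 fold change of 1 or more in either direction and a Benjamini-Hochberg adjusted p, over 14630 genes, no higher than 0.05. All 9 factors passed the filter on low values. Over all genes tested, 39.5% were DEGs and 17.8% were DEGs with the higher level in hypHSCs. The median log2 fold change was 4.21 for the factors and -0.20 for all genes tested. In 8 of the 9, every hypHSC library was above every qHSC library, and non-overlapping groups were seen in 39.5% of the genes tested. For these 8 factors the exact two-sided permutation p was 0.00794, the smallest that 5 libraries against 5 can give.

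**Figure D1:**
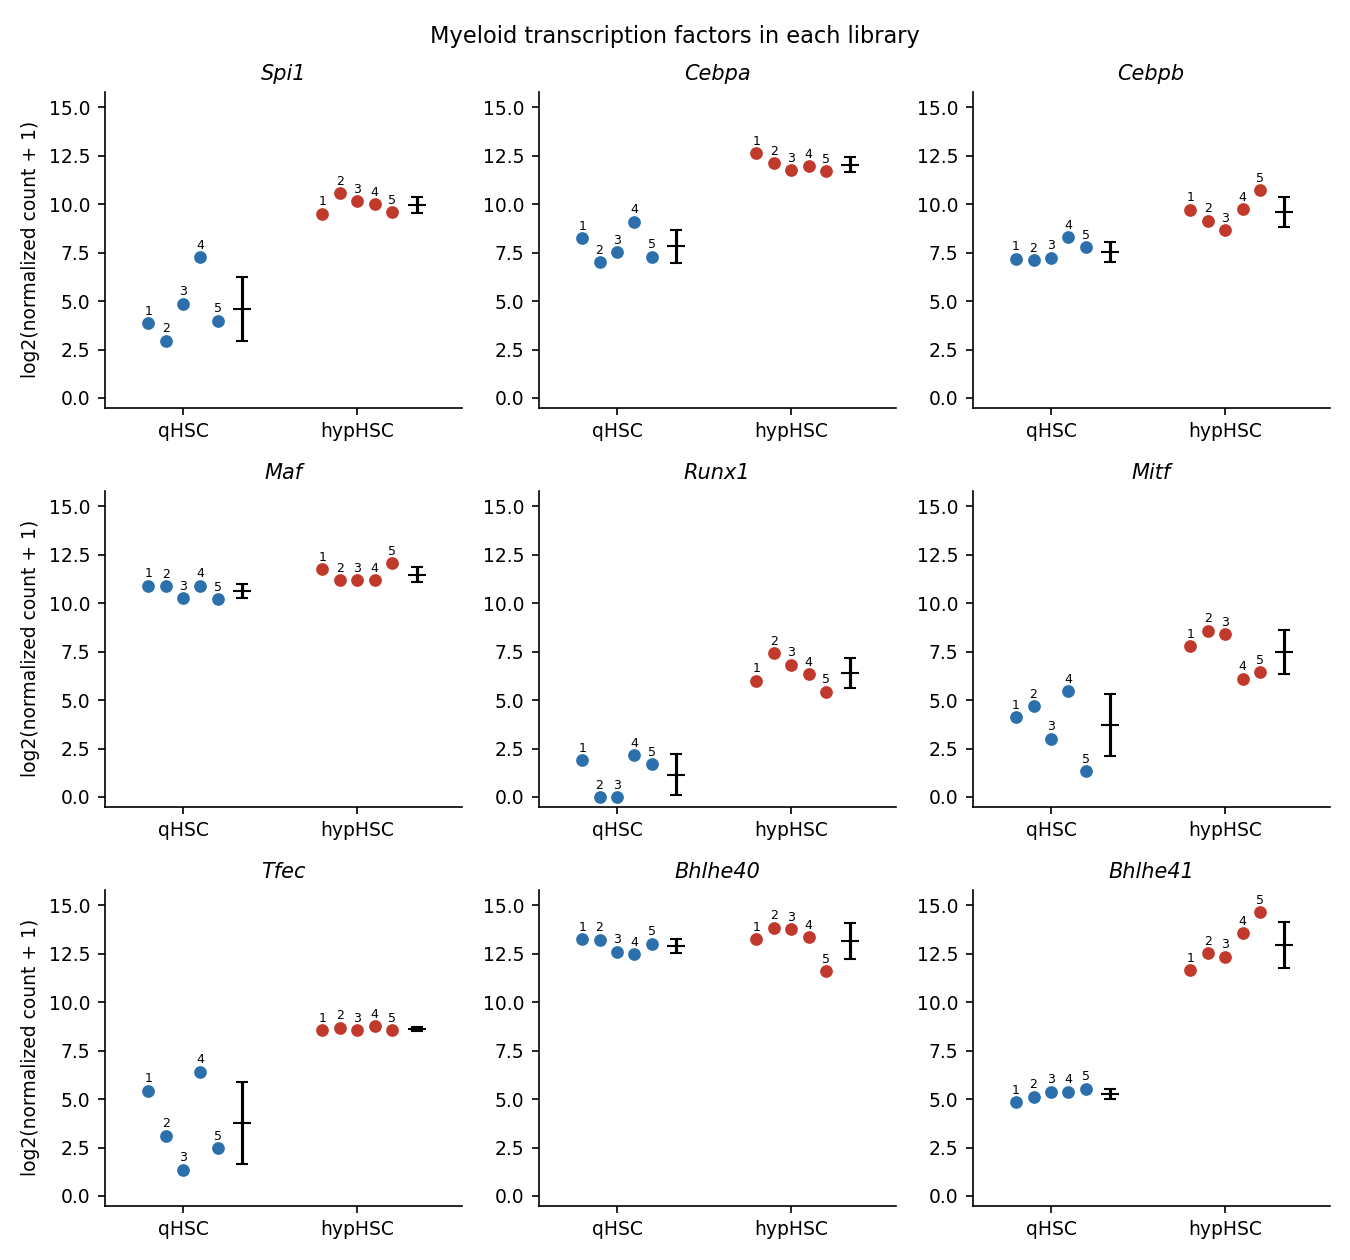
Level of each factor in each library, as log2(normalized count + 1), with the replicate number over each point and the mean with its SD (n = 5) beside each group. All panels share 1 vertical scale. *Bhlhe40* is the panel in which the groups overlap, and *Bhlhe41* the one with the widest gap, from 45.7 normalized counts in the highest qHSC to 3231 in the lowest hypHSC.

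*Spi1* encodes PU.1 and lies at chr2:90912750-90946103 of the mm39 build. In hypHSC 1 to 5 it was at 730.4, 1518, 1142, 1041 and 774 normalized counts. The values in qHSC 1 to 5 were 13.6, 6.82, 28.3, 153 and 15.0. All hypHSCs thus lay at least 4.77-fold above the highest qHSC, which was qHSC 4, the library with the most macrophage marker signal. This was a log2 fold change of 5.38 (SE 0.68, 95% interval 3.89 to 6.87, limma adjusted p = 7.42e-05), on the log2(normalized count + 1) scale used throughout. Normalized for transcript length, *Spi1* was at 8.35 ± 2.99 FPKM in hypHSCs and 0.443 ± 0.631 in qHSCs (SD, n = 5 each). Without qHSC 1 and 4, an alternative chosen after the data had been seen, its log2 fold change was 6.03.

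Of 12 listed relatives of PU.1 in the ETS family, 9 passed the filter, 2 were higher, 1 was lower and 6 were not DEGs. Over all genes tested, 39.5% were DEGs and 17.8% were DEGs with the higher level in hypHSCs. With 9 genes, the counts of the list are near these shares. The split of the list was 1 higher and 3 lower with libraries scaled to the same total and 1 higher and 5 lower with the reference genes *Hprt*, *Pgk1* and *Actb*. *Spic*, the factor of iron-recycling red pulp macrophages, rose from 355 ± 459 to 2783 ± 905 normalized counts (SD, n = 5 each; log2 fold change 3.99, SE 0.82, limma adjusted p = 0.00199). *Elf1*, a broadly expressed ETS factor, was higher by a log2 fold change of 1.08, and was not a DEG when libraries were scaled to the same total (0.73) or to the reference genes (0.14). *Ets1*, a factor of lymphoid and endothelial cells, fell from 209 to 452 normalized counts in qHSCs to 0 to 24.3 in hypHSCs (log2 fold change -5.66, SE 0.97, limma adjusted p = 0.00064). *Fli1*, best known from megakaryocytes and endothelium, was at 401 ± 150 in hypHSCs and 355 ± 55.4 in qHSCs. Within a library, the log2 ratio of the normalized counts of *Spi1* to those of *Fli1* was 1.10 to 2.10 in hypHSCs and -5.60 to -1.42 in qHSCs, a mean difference of 5.29 (SE 0.74, exact two-sided permutation p = 0.00794, adjusted p = 0.0139 over the 7 ratios computed).

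All 22 listed PU.1 target genes were higher in hypHSCs, against 17.8% of all genes tested, with a median log2 fold change of 5.54. *Cd68*, a lysosomal glycoprotein of macrophages, rose from 2603 ± 3172 to 157272 ± 33250 normalized counts. *Fcer1g*, the signalling chain of Fc receptors, rose from 3509 ± 4424 to 80553 ± 16396. *Itgam*, the CD11b integrin chain, had the largest log2 fold change of the list at 7.45, and *Fgr*, a kinase of the Src family, the smallest at 3.50. Of the 22 targets, 6 are also among the core macrophage markers, so the list and the marker sum are not independent. The count stayed at 22 under the 4 other scalings of the libraries and without qHSC 1 and 4, and *Csf1r* was lost from it with hypHSCs at 12 weeks alone.

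*Cebpa*, which drives entry into the granulocyte and monocyte lineage, lies at chr7:34818718-34821353 and has a single exon. It was at 6457, 4438, 3511, 4051 and 3355 normalized counts in hypHSC 1 to 5. The qHSCs held 304, 128, 184, 552 and 156, again highest in qHSC 4. The lowest hypHSC was 6.08-fold above the highest qHSC. The log2 fold change was 4.21 (SE 0.37, 95% interval 3.39 to 5.03, limma adjusted p = 6.11e-06). At 39.8 ± 12.3 FPKM, *Cebpa* ranked 835 of 22964 genes in hypHSCs, against 5317 in qHSCs at 3.09 ± 2.05 FPKM (SD, n = 5 each).

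*Cebpb*, the inflammation-inducible relative, lies at chr2:167530835-167532352. Its values in hypHSC 1 to 5 were 848, 569, 404, 869 and 1699 normalized counts. The qHSCs, in the same order, held 145, 138, 151, 318 and 222. The groups did not overlap, but the lowest hypHSC was only 1.27-fold above the highest qHSC. Between the groups the log2 fold change was 2.07 (SE 0.39, 95% interval 1.22 to 2.93, limma adjusted p = 0.00115). Scaling by the reference genes ended the call, with a log2 fold change of 1.14 and an adjusted p of 0.0523. Of the exon bases of *Cebpb*, 20.7% are also covered by *Peds1* on the opposite strand. *Peds1* was at 1599 to 2686 normalized counts in hypHSCs and 174 to 309.5 in qHSCs, and reads of the 2 genes cannot be told apart there because the libraries keep no strand.

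The balance of the pair shifted toward *Cebpa*. The log2 ratio of *Cebpa* to *Cebpb* was 2.93, 2.96, 3.12, 2.22 and 0.98 in hypHSC 1 to 5 and between -0.51 and 1.07 in qHSCs. hypHSC 5, with the most *Cebpb*, lay inside the qHSC range. The mean difference was 2.14 (SE 0.49, exact two-sided permutation p = 0.0159, adjusted p = 0.0185 over 7 ratios). With the 3 hypHSCs at 12 weeks alone it was 1.80 and the adjusted p was 0.0833. Among other C/EBP members, 3 of 4 passed the filter. *Cebpg*, a dimer partner, was higher by 1.34 and *Ddit3*, the stress-induced CHOP, by 1.02, both on the log2 scale, and neither was a DEG when libraries were scaled to the same total or to the reference genes. *Ddit3* was also not a DEG with hypHSCs at 12 weeks alone or without hypHSC 1, hypHSC 4, qHSC 1 or qHSC 2, at 0.88 to 0.99. *Cebpd* fell from 1019 ± 268 to 322 ± 150 normalized counts (SD, n = 5 each).

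Of 16 listed C/EBP target genes, 12 passed the filter, 7 were higher, 1 was lower and 4 were not DEGs, with a median log2 fold change of 3.90. Higher DEGs made up 17.8% of all genes tested. *Lyz2*, lysozyme and also a core macrophage marker, rose from 10586 ± 12434 to 845672 ± 76695 normalized counts. *Ccl3*, a chemokine for monocytes, rose from 657 ± 529 to 11279 ± 3744, and *Saa3*, an acute phase protein, from 47.8 ± 55.3 to 1327 ± 353. *Il1b* was at 796 ± 312 in hypHSCs and 437 ± 494 in qHSCs and was not a DEG, but it was one without qHSC 4 (log2 fold change 1.97, limma adjusted p = 0.00657) and without qHSC 1 and 4 (2.38). The 1 lower gene, *Prtn3*, a granule protease of neutrophils, was at 0 to 10.8 in hypHSCs and 13.6 to 38.5 in qHSCs. Neutrophil markers, which share *Csf3r* with this list, were tested for 5 of 7, with all 5 higher. These markers summed to 2039 to 8391 in hypHSCs and 5.25 to 399.6 in qHSCs. Their part in the result was not tested.

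*Runx1* lies at chr16:92398355-92622964 and was the least abundant factor per length. It was at 63.3, 173, 113, 79.7 and 42.4 normalized counts in hypHSC 1 to 5. In qHSC 1 to 5 it was at 2.72, 0, 0, 3.42 and 2.25, which are 3, 0, 0, 4 and 3 reads. Detection in qHSCs was therefore at or near the floor of 3 reads per library. Over all libraries, 454 reads against 10 gave 60.7 times the level in hypHSCs, with an exact 95% interval of 32.7 to 127 that covers counting error only. The log2 fold change was 5.26 (SE 0.65, limma adjusted p = 6.76e-05), and it ranged from 3.78 to 5.87 with the pseudocount and the other settings. At 0.183 ± 0.107 FPKM, *Runx1* remained a gene of low level in hypHSCs, ranked 12355.

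*Runx2*, the bone factor, and *Runx3*, a factor of lymphocytes, did not pass the filter. *Cbfb*, the partner that stabilises RUNX proteins on DNA, rose from 703 ± 105 to 2822 ± 907 normalized counts (log2 fold change 1.96, SE 0.23, limma adjusted p = 4.12e-05). *Runx1t1*, a corepressor known as ETO, fell from 294 ± 93.9 to 24.2 ± 31.2. The log2 ratio of *Runx1* to *Runx2* was higher in hypHSCs by 3.97 (SE 1.18, exact two-sided permutation p = 0.0159, adjusted p = 0.0185). It rests on 0 to 6.30 normalized counts of *Runx2* in qHSCs, and hypHSC 1, at 0.13, lay below qHSC 5, at 1.70. Of 10 listed RUNX targets, 6 passed the filter and 5 were higher, against 17.8% of all genes tested. *Spp1*, osteopontin, rose from 122 ± 154 to 237752 ± 72318, *Csf1r*, the receptor that macrophages need to survive, from 1497 ± 1733 to 13955 ± 10449, and *Csf2ra*, a chain of the GM-CSF receptor, from 139 ± 31.2 to 921 ± 249.7. The groups overlapped for *Csf1r* and for the integrin *Itgal*, and *Csf1r* was not a DEG with hypHSCs at 12 weeks alone (log2 fold change 3.14, limma adjusted p = 0.0594).

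*Mitf* and *Tfec* are close relatives on chromosome 6. *Mitf*, at chr6:97784018-97998319, was at 219.6, 384, 340.1, 68.2 and 86.2 normalized counts in hypHSC 1 to 5. In qHSC 1 to 5 it was at 16.3, 24.7, 7.09, 42.8 and 1.5, the last being 2 reads, below the floor of 3. The groups did not overlap, yet hypHSC 4 and 5 were nearer to qHSC 4 than to hypHSC 1, 2 and 3. The log2 fold change was 3.75 (SE 0.81, 95% interval 1.98 to 5.53, limma adjusted p = 0.00275). *Tfec*, at chr6:16833380-16898440, is a member of the family that is largely restricted to macrophages. It was at 373, 410.0, 379, 430.1 and 375 in hypHSC 1 to 5, a coefficient of variation of 0.0644. No other factor was as even over the hypHSCs. In qHSC 1 to 5 it was at 42.5, 7.67, 1.57, 84.7 and 4.5, with qHSC 4 and qHSC 1 highest, as for the macrophage markers. The value in qHSC 3 was 2 reads, also below the floor. The log2 fold change was 4.86 (SE 0.85, 95% interval 3.0 to 6.72, limma adjusted p = 0.000694), and 6.31 without qHSC 1 and 4.

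The log2 ratio of *Mitf* to *Tfec* ranged from -2.64 to -0.09 in hypHSCs and from -1.33 to 1.65 in qHSCs. The mean difference of -1.11 (SE 0.85) did not pass the test (exact two-sided permutation p = 0.222). The other MiT/TFE members were both DEGs. *Tfeb*, the main activator of lysosome genes, rose from 58.6 ± 7.34 to 606 ± 345 normalized counts, and *Tfe3* from 350.2 ± 67.9 to 864 ± 370.0 (SD, n = 5 each). *Tfe3* was not a DEG with libraries scaled to the same total (0.85) or to the reference genes (0.27), or with hypHSCs at 12 weeks alone (0.99). *Mitf* gained on *Tfe3* by 2.55 in log2 ratio (SE 0.71, exact two-sided permutation p = 0.00794, adjusted p = 0.0139 over 7 ratios).

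Genes under MITF and TFE control were mostly higher. Of 16 listed targets, 15 passed the filter, 12 were higher, none was lower and 3 were not DEGs. The shares over all genes tested were 17.8% higher and 21.7% lower. *Gpnmb*, a glycoprotein of pigment cells and lipid-laden macrophages, rose from 33.8 ± 18.5 to 197368 ± 128739 normalized counts. *Atp6v0d2*, a subunit of the vacuolar proton pump, was at 0 to 11.0 in qHSCs and 15616 to 17973 in hypHSCs. *Ctsd*, a lysosomal protease, rose from 15895 ± 3796 to 232160 ± 146255, and *Hexa*, a lysosomal hexosaminidase, from 4450 ± 753 to 17168 ± 4805. With the reference genes as scale, 7 of the 15 were higher DEGs. With 7 melanocyte pigment genes listed, 2 passed the filter and neither was a DEG, with *Mlana* at 52.0 ± 51.7 in hypHSCs and 3.41 ± 6.29 in qHSCs and *Pmel* at 19.5 ± 18.3 and 26.7 ± 10.2. *Mlana* was a higher DEG with DESeq2 (4.03, adjusted p = 0.0282), with a pseudocount of 5 (2.26), without qHSC 1 (4.05), without qHSC 1 and 4 (4.51) and without hypHSC 4 (4.48), and *Pmel* a lower one with the reference genes (-1.74). Mast cell markers, of another cell type that uses MITF, summed to 157 in hypHSC 4, to 0 to 2.7 in the other hypHSCs and to 0 in all qHSCs. None of these 5 markers passed the filter.

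*Maf*, at chr8:116409681-116434576, was expressed in both groups. It was at 3439, 2345, 2368, 2339 and 4324 normalized counts in hypHSC 1 to 5. The qHSCs, from 1 to 5, were at 1928, 1892, 1223, 1919 and 1181. The lowest hypHSC was 1.21-fold above the highest qHSC. *Maf* had a log2 fold change of 0.85 (SE 0.24, 95% interval 0.33 to 1.37, limma adjusted p = 0.0122), which passed the p threshold but not the fold threshold of a DEG. The sign was not kept under every scaling, since the log2 fold change was -0.09 with the reference genes. Per length, *Maf* was at 7.54 ± 1.78 FPKM in hypHSCs and 5.37 ± 1.33 in qHSCs.

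Of the small MAF proteins, *Maff* was higher by 1.12 on the log2 scale, a call lost with libraries scaled to the same total (0.77) or to the reference genes (0.19), with hypHSCs at 12 weeks alone (1.14), without qHSC 1 and 4 (1.20) and without hypHSC 5 (0.89). *Mafk*, at 1104 ± 465 in hypHSCs and 1702 ± 386 in qHSCs, was not a DEG, though a lower one with libraries scaled to the same total (-1.06) or to the reference genes (-1.64). Nor was *Mafg* a DEG, whose entry is shared with *Sirt7* and stood at 2562 ± 841 and 1980.0 ± 189.

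Of 12 listed MAF targets, 9 were higher, none was lower and 3 were not DEGs, and 5 were higher with hypHSCs at 12 weeks alone and 6 with DESeq2 or edgeR. With libraries scaled to the same total or to the reference genes 1 was lower. Of all genes tested, 17.8% were higher DEGs. The complement genes *C1qa* and *C1qb* rose from 3316 ± 4339 to 30420 ± 20069 and from 10733 ± 14026 to 122228 ± 63311 normalized counts. *C1qa* was not a DEG with hypHSCs at 12 weeks alone (log2 fold change 3.05, limma adjusted p = 0.0808). *Cd5l*, a scavenger protein secreted by macrophages, was at 2453 ± 3535 in qHSCs and 7781 ± 1809 in hypHSCs. It was a DEG in limma (log2 fold change 3.23, adjusted p = 0.0165) but not with DESeq2 (1.70, adjusted p = 0.086), edgeR (1.69, adjusted p = 0.174) or hypHSCs at 12 weeks alone (3.21, limma adjusted p = 0.0587). For all 3 genes the groups overlapped. *Apoe*, the lipid carrier, was at 513193 ± 499537 in hypHSCs and 307287 ± 164731 in qHSCs. The list shares 4 genes with the markers of resident Kupffer cells, which summed to 14435.5 to 26328 in hypHSCs and 1139 to 39350.5 in qHSCs, highest in qHSC 4. It shares 3 more with the core macrophage markers.

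*Bhlhe41*, at chr6:145803020-145811146, showed the largest change of the 9 factors. It was at 3231, 5883, 5266, 12107 and 25995 normalized counts in hypHSC 1 to 5. In qHSC 1 to 5 it was at 28.1, 34.1, 40.9, 41.1 and 45.7, a narrow range. The lowest hypHSC was 70.7-fold above the highest qHSC, and hypHSC 5 was 8.04-fold above hypHSC 1. The log2 fold change was 7.69 (SE 0.48, 95% interval 6.64 to 8.74, limma adjusted p = 4.95e-07), and 57 of the genes tested had a larger one. Neither qHSC 4 nor qHSC 1, the qHSCs with the most macrophage marker signal, was its highest qHSC library. Of its exon bases, 26.2% are covered by noncoding transcripts of the opposite strand, whose reads cannot be told apart from its own.

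*Bhlhe40*, at chr6:108637589-108643886, was already abundant in qHSCs. It was at 9753, 14758, 14197, 10469 and 3119 normalized counts in hypHSC 1 to 5. For qHSC 1 to 5 the values were 9731, 9593, 6243, 5683 and 8323. The groups overlapped, with hypHSC 5 the lowest of all 10 libraries and the other hypHSCs above every qHSC. Its log2 fold change was 0.26 (SE 0.39, 95% interval -0.60 to 1.11, limma adjusted p = 0.612, exact two-sided permutation p = 0.635). Without hypHSC 5 it was 0.65 (limma adjusted p = 0.0244), under the fold threshold, and with hypHSCs at 12 weeks alone it was 0.0021. Its sign turned when libraries were scaled to the same total, to -0.10, or to the reference genes, to -0.68. *Bhlhe40* was at 40.7 ± 20.5 FPKM in hypHSCs and 37.9 ± 8.61 in qHSCs.

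The 2 paralogs were thus unequal in qHSCs and closer in hypHSCs. As FPKM, *Bhlhe40* was at 156 to 391 times the level of *Bhlhe41* in qHSCs. In hypHSC 1, 2 and 3 it was at 3.40, 2.83 and 3.04 times, in hypHSC 4 at 0.974 times and in hypHSC 5 at 0.135 times. hypHSC 5, lowest in *Bhlhe40*, was the highest in *Bhlhe41*. The log2 ratio differed between the groups by -7.43 (SE 0.92, exact two-sided permutation p = 0.00794, adjusted p = 0.0139 over 7 ratios).

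**Figure D2:**
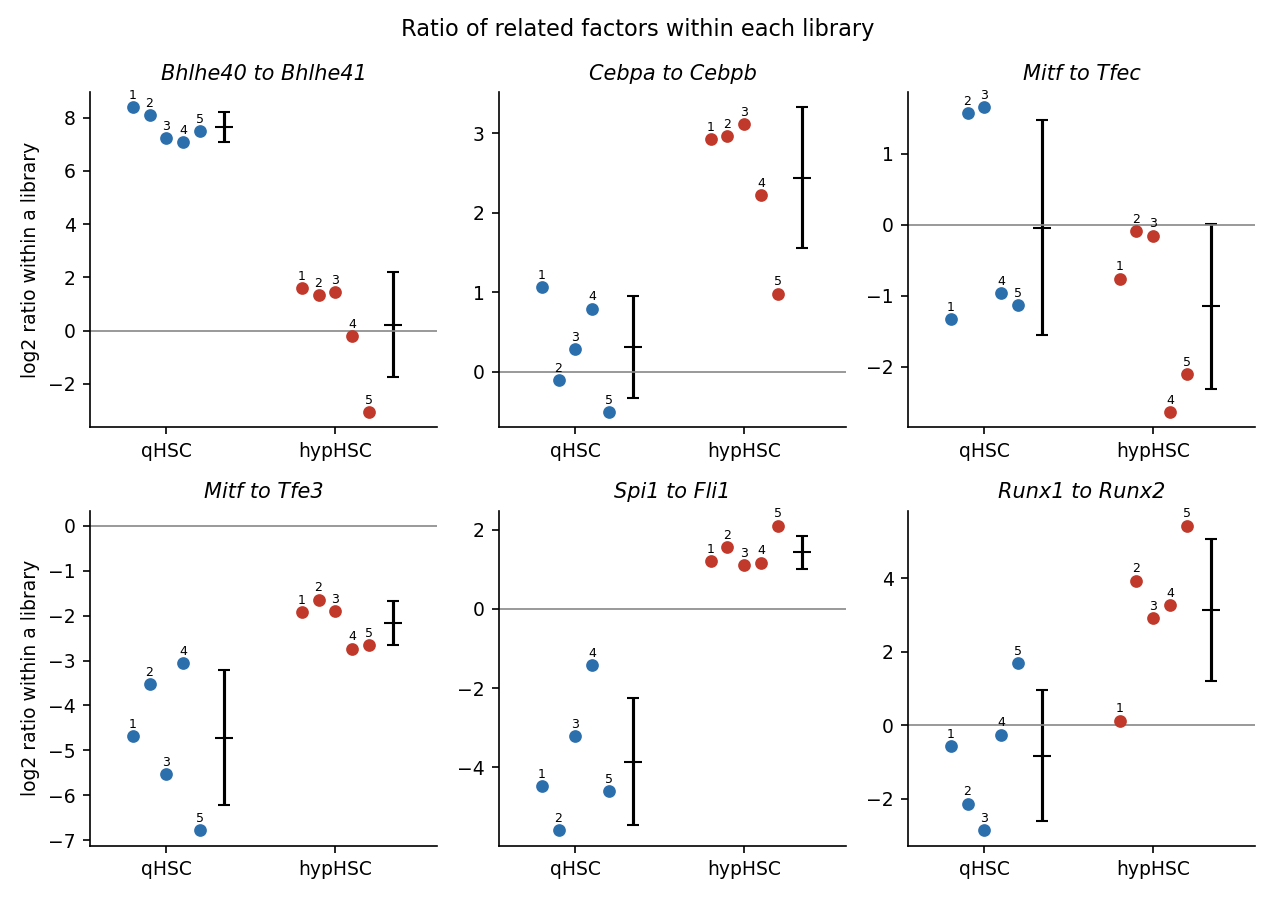
Log2 ratio of 2 related factors within each library, from normalized counts with 1 added to each, with the replicate number over each point and the mean with its SD (n = 5) beside each group. Each panel has its own vertical scale, and the grey line marks equal normalized counts. The groups are apart for *Bhlhe40* to *Bhlhe41*, *Mitf* to *Tfe3* and *Spi1* to *Fli1*, and overlap for the other 3.

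Of 12 listed BHLHE40 and BHLHE41 targets, most of them clock genes, 2 were higher, 1 was lower and 9 were not DEGs, with a median log2 fold change of -0.31. Higher DEGs were 17.8% of all genes tested and DEGs in either direction 39.5%, so these counts do not stand above those shares. In the list, the number of lower genes was 5 with the reference genes, 2 with DESeq2, with the replicate block and with hypHSCs at 12 weeks alone, and 0 without qHSC 1 and 4. The higher genes were *Ciart*, a circadian repressor, from 29.6 ± 15.3 to 297 ± 128 normalized counts, and *Il10*, an anti-inflammatory cytokine that is also on the MAF list, from 37.7 ± 50.7 to 229.6 ± 54.6. The lower gene was *Arntl*, which encodes the clock activator BMAL1, from 425 ± 183 to 138 ± 88.0, which was not a DEG without qHSC 1 and 4. *Nr1d1* was at 406 ± 307 in hypHSCs and 1896 ± 2173 in qHSCs. It was not a DEG, but it was a lower one with the replicate number as a block (log2 fold change -1.87, limma adjusted p = 0.01), DESeq2 (-2.19, adjusted p = 0.0128), the reference genes (-2.81) and hypHSCs at 12 weeks alone (-2.74). *Nr1d2* was at 506 ± 90.8 in hypHSCs and 480.0 ± 407 in qHSCs, *Per3* at 316 ± 271 and 364 ± 231, and *Clock* at 246 ± 71.5 and 344 ± 49.0. The hour at which the livers were taken is not given in the sources used here.

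**Figure D3:**
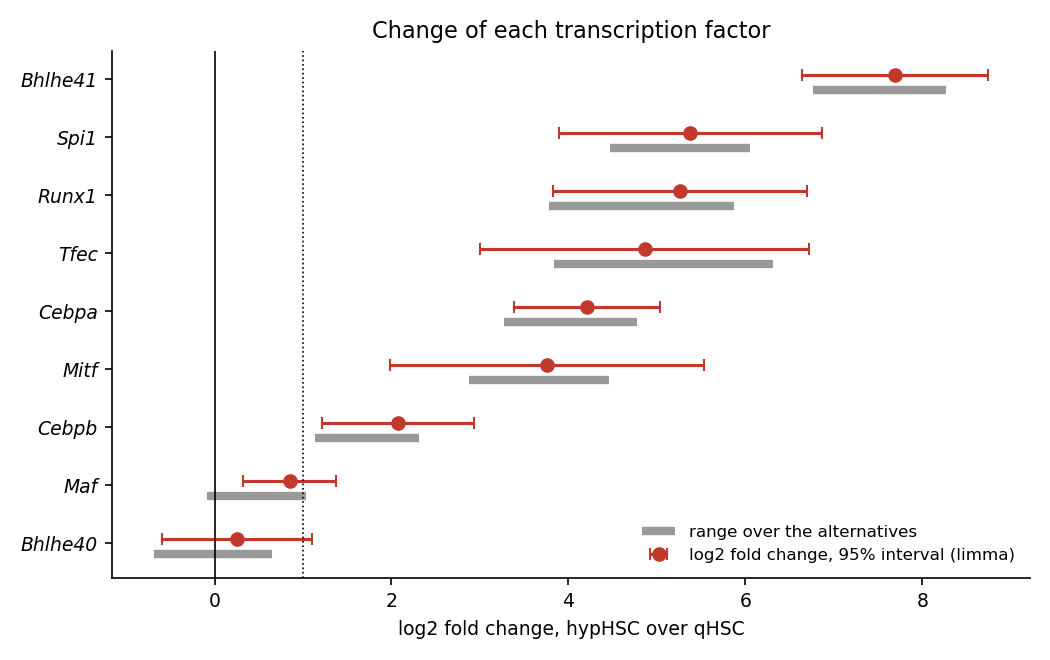
Log2 fold change of each factor, hypHSC over qHSC, with its 95% interval from limma (red) and the range of the value over the alternative settings (grey bar). The solid line marks no change and the dotted line the DEG threshold of 1. The intervals of 7 factors lie above 1, the interval of *Maf* spans it, and that of *Bhlhe40* spans 0.

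Promoter sequences of the factors that changed were read to show what these genes carry at their starts. RefSeq promoter windows of 300 bases, 250 before and 50 after the start, were given on GRCm38.p6 and matched exactly once in GRCm39, whose coordinates are used. They covered 9 promoters of 6 factors (*Bhlhe41*, *Cebpa*, *Cebpb*, *Mitf*, *Runx1* and *Tfec*). No window was given for *Spi1*, *Maf* or *Bhlhe40*. Both strands were searched for 6 motifs. The promoters of *Cebpa* and *Cebpb*, and that of *Mitf* at chr6:97968494-97968793, held no match. Of all 32851 promoters, 28.3% hold the ETS core of PU.1, GAGGAA, 10.8% a C/EBP motif, TTGCNNAA, and 16.8% the RUNX motif TGTGGT. The E-box CACGTG, which BHLHE and MiT/TFE proteins bind, is in 7.15%, the M-box core CATGTG in 14.2% and the MAF core TGCTGA in 19.5%. The promoter of *Bhlhe41*, the factor with the largest change, the upstream promoter of *Runx1* and that of *Tfec*, the evenest factor, are shown on the gene's strand with the motif matches in capitals.
Bhlhe41, chr6:145811097-145811396, minus strand: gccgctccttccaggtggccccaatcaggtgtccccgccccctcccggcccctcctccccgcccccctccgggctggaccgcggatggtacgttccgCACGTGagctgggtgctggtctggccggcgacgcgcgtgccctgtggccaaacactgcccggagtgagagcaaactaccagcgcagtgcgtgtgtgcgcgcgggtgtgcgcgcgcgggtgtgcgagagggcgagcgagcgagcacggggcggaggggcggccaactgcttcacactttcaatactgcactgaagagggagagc
Runx1, chr16:92622913-92623212, minus strand: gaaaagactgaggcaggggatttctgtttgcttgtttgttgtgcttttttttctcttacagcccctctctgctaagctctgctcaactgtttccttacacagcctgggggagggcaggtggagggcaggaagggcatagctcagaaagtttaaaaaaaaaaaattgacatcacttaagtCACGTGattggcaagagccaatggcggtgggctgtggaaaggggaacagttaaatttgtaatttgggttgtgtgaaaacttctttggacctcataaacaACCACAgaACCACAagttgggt
Tfec, chr6:16898391-16898690, minus strand: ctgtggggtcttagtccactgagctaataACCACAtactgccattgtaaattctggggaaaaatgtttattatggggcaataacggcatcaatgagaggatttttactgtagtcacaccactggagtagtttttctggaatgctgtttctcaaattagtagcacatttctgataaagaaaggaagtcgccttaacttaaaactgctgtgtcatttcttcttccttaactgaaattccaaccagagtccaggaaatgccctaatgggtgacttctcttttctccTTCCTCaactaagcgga
The capitals in *Bhlhe41* are 1 E-box at -153 from the start. Those in *Runx1* are an E-box at -71 and the RUNX motif, read on the other strand, at 29 and 37 after the start. Those in *Tfec* are the RUNX motif at -221 and the ETS core at 34, both read on the other strand. None of these matches overlapped another. A match is a stretch of letters, and binding was not measured.

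The factors also varied among the libraries of 1 group, and not alike. In qHSCs, 6 of the 9 factors were highest in qHSC 4. On the log2 scale, qHSC 4 was 2.67 above the qHSC mean for *Spi1*, 2.66 for *Tfec* and 2.45 for the sum of core macrophage markers. For *Maf* it was 0.27 above, for *Bhlhe41* 0.13 above and for *Bhlhe40* 0.44 below. In hypHSCs, the marker sum varied little, from -0.34 to 0.22 around its mean, while *Bhlhe41* ran from -1.30 to 1.71 and *Mitf* from -1.36 to 1.12. hypHSC 5 was highest in *Bhlhe41*, *Cebpb* and *Maf* and lowest in *Bhlhe40*, *Runx1* and *Cebpa*.

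**Figure D4:**
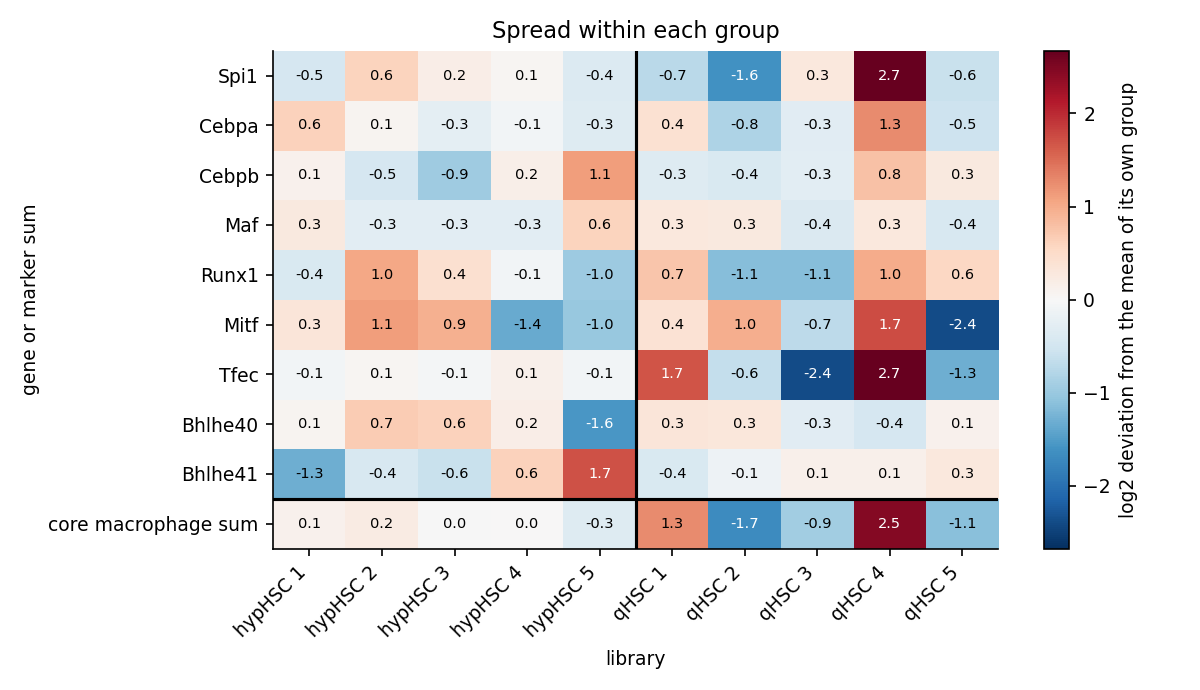
Deviation of each library from the mean of its own group, on the log2(normalized count + 1) scale, for the 9 factors and, in the last row, for the sum of the 13 core macrophage markers. Red is above and blue below the group mean. qHSC 4 is 2.45 above for the markers and 2.67 above for *Spi1*, and hypHSC 5 is 1.71 above for *Bhlhe41* and 1.56 below for *Bhlhe40*.

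Set against the macrophage markers, the groups overlapped for some factors and not for others. Per 1000 counts of the core markers, *Spi1* was at 0.50 to 0.965 in hypHSCs and 0.265 to 2.54 in qHSCs, so that the groups overlapped. They overlapped likewise for *Runx1*, *Mitf*, *Tfec* and *Bhlhe41*, but this overlap does not mean that these factors behaved alike. *Bhlhe41* itself was at 28.1 to 45.7 normalized counts in qHSCs, while the marker sum it is divided by ran from 6608 to 116124. *Runx1* rests on 0 to 4 reads in each qHSC library. *Cebpa* was at 2.61 to 4.42 in hypHSCs and 4.75 to 19.3 in qHSCs, without overlap. *Cebpb*, *Maf* and *Bhlhe40* were also higher in every qHSC per marker count, *Maf* at 1.49 to 4.06 against 16.5 to 286 and *Bhlhe40* at 2.93 to 10.6 against 48.9 to 1452. These ratios divide by a sum that itself differs between the groups and were not tested.

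Other regulators of macrophages were mixed. Of 16 listed, 13 passed the filter, 6 were higher, 1 was lower and 6 were not DEGs, and with the reference genes as scale 5 were higher and 5 lower. With libraries scaled to the same total 6 were higher and 3 lower. Among all genes tested, 17.8% were higher and 21.7% lower DEGs in the main fit. *Id2*, an inhibitor of basic helix-loop-helix factors, rose from 4938 ± 1233 to 47383 ± 6136 normalized counts, while its relative *Id3* fell from 55139 ± 10453 to 23820 ± 10388. *Id3*, the 1 lower gene, was not a DEG without hypHSC 5 (log2 fold change -0.98) or without qHSC 1 and 4 (-1.31, limma adjusted p = 0.0563). *Zeb2*, a repressor that helps to keep the identity of tissue macrophages, was at 6195 ± 1522 in hypHSCs and 11795 ± 859 in qHSCs, and *Fos*, of the AP-1 complex, at 49671 ± 7357 and 102341 ± 46331, and neither reached the fold threshold of a DEG, which both did with libraries scaled to the same total or to the reference genes and without qHSC 3, and *Zeb2* also without hypHSC 2 or hypHSC 3.

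**Figure D5:**
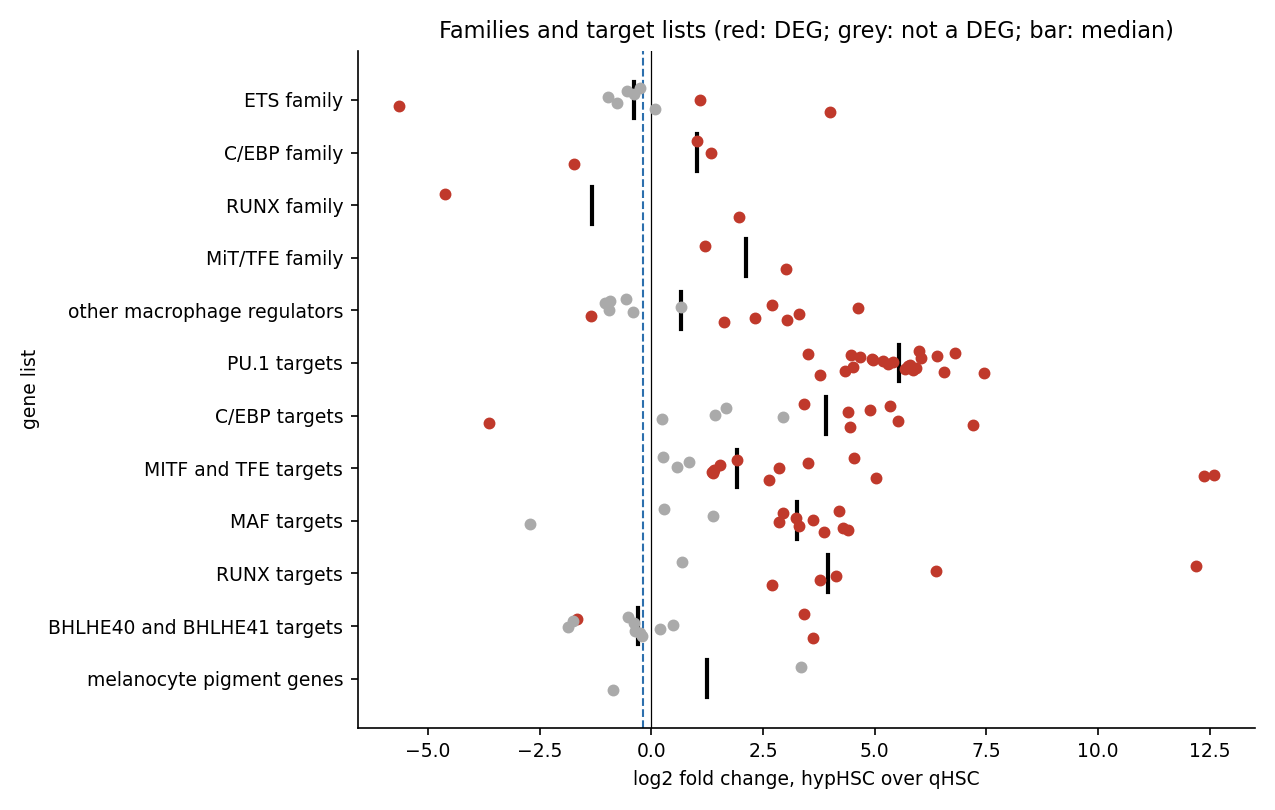
Log2 fold change, hypHSC over qHSC, of each tested gene in the lists of relatives and target genes. Red points are DEGs, grey points are not, the black bar is the median of the list and the dashed line the median of all genes tested, -0.20. PU.1 targets lie from 3.50 to 7.45, and BHLHE40 and BHLHE41 targets lie around their median of -0.31.

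For each factor, the genes closest in pattern were found among 10790 genes whose mean reached 100 normalized counts, by the root mean square distance of the log2 values over the 10 libraries after each gene's own mean was removed. That mean covers both groups, so the distance includes the difference between them, and genes with a like fold change lie near. *Spi1* was closest to *Ncf4*, a subunit of the phagocyte oxidase and itself on the PU.1 list, at a distance of 0.58. *Cebpa* was closest to *Ifi30*, a lysosomal thiol reductase, at 0.32, *Runx1* to *Acp5*, the tartrate-resistant phosphatase, at 0.49, *Mitf* to *Cmklr1*, the chemerin receptor, at 0.59 and *Tfec* to *Apbb1ip*, an integrin adaptor, at 0.50. *Cebpb* was closest to *Atp1b3* at 0.22, a subunit of the sodium pump, and *Maf* to *Lrrc42* at 0.15. *Bhlhe40*, which changed least, was closest to *Il27* at 0.14. *Bhlhe41* was closest to *Gm36598*, an unnamed gene at 213 normalized counts in hypHSCs and 0 in all qHSCs, at 0.41.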

How the data were processed

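RNA sequencing of 5 hypHSC and 5 qHSC libraries was analysed. Per gene, a signal was deposited: the authors aligned unstranded paired reads of 59 bases to mm39 (STAR), assigned them to genes (featureCounts of Subread 1.5.0, per the labels' processing notes) and divided each library by its DESeq2 size factor. Whole reads were recovered from them (at least 99.996% of the values of each library came out whole to 2 decimals) and served for depth, FPKM, DESeq2 and edgeR. Exon lengths came from GENCODE on GRCm39.

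Of 62322 entries, the 25233 with a symbol were used, and 14630 that reached 10 normalized counts in 5 or more libraries were tested. log2(normalized count + 1) was compared with limma 3.58.1 (R 4.3.3, intensity trend), since the deposited values are not counts. The study's methods use DESeq2, which was run as an alternative (1.42.0), as was edgeR 4.0.16 (quasi-likelihood). The calculation was tested on simulated data. Single factors and within-library ratios were compared by exact two-sided permutation over 252 arrangements. The limma intervals rest on the spread between libraries. The interval of the pooled *Runx1* reads, and the floor of 3 reads (2.25 to 4.54 normalized counts), cover counting error only.

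The members, the marker, family and target lists and the alternatives were chosen with earlier results of these data known. Named genes are the 4 most abundant tested genes of each list, the genes of the 7 ratios (1 ratio and 1 gene are not reported here) and the genes nearest in pattern. *Ets1*, *Itgam*, *Fgr*, *Prtn3*, *Ciart*, *Il10* and *Arntl*, and *Peds1*, which overlaps *Cebpb*, were chosen after their values were seen.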

Additional observations from a re-analysis of the deposited data

Results flagged for a closer look

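*Spi1* in qHSC 4 stood far from the other qHSCs, at 153 normalized counts against 28.3 in the next library and 6.82 to 15.0 in the other 3. On normalized counts, the gap was 0.853 of the group's range, above the limit of 0.71 for 5 values. The gap was a smaller part of the range on the log2 scale. There *Spi1* deviated from the qHSC mean by 2.67 in qHSC 4, 0.28 in qHSC 3 and -1.63 in qHSC 2. Factors were examined as normalized counts and ratios on the log2 scale. Of 32 sets of 5 values examined, factors and ratios together, 1 passed this limit. Chance gives about 1 in 20 where values are normally distributed, which was not checked. The core macrophage markers were also highest in this library, at 116124 normalized counts. The part of other cells in this value was not tested. Without qHSC 4 the log2 fold change of *Spi1* was 6.05.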

How the results depend on the processing

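*Spi1*, *Cebpa*, *Runx1*, *Mitf*, *Tfec* and *Bhlhe41* were higher DEGs under every alternative that tested them, DESeq2 and edgeR included. *Runx1*, too low for a filter at a mean of 100 normalized counts, was tested under 24 alternatives and the others under 25. Their log2 fold changes ranged from 4.47 to 6.05 for *Spi1*, 3.27 to 4.77 for *Cebpa*, 3.78 to 5.87 for *Runx1*, 2.87 to 4.46 for *Mitf*, 3.84 to 6.31 for *Tfec* and 6.76 to 8.27 for *Bhlhe41*. *Cebpb* was a DEG under 24 of 25, its value falling to 1.14 (limma adjusted p = 0.0523) with *Hprt*, *Pgk1* and *Actb* as references. *Maf* became a DEG under 1 of 25, without qHSC 1 and 4, an alternative chosen after the data had been seen (log2 fold change 1.03, limma adjusted p = 0.0193).

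Scaling moved the median log2 fold change of all genes by -0.35 with the same total and by -0.94 with the reference genes, and by 0.12 with the same upper quartile. The DEGs, 2602 higher and 3177 lower, became 2013 and 4243 with the same total and 1472 and 7020 with the reference genes. Signs turned to -0.088 for *Maf* (reference genes), to -0.10 (same total) and -0.68 (reference genes) for *Bhlhe40*, to -0.061 and -0.64 for *Mafg // Sirt7*, to -0.065 and -0.65 for *Apoe* and to -0.46 (reference genes) for *Nr1d2*. *Apoe* was at -0.024 without qHSC 1 and 4 and *Per3* at 0.35 with hypHSCs at 12 weeks alone. With 1 library left out, *Apoe* ran from -0.20 to 0.77 and *Per3* from -0.78 to 0.035. Including entries without a symbol gave 9291 DEGs in place of 5779, over 24320 entries tested. The log2 ratio of *Cebpa* to *Cebpb* was 1.80 with hypHSCs at 12 weeks alone (adjusted p = 0.0833), where fewer arrangements are possible. Apart from the construction of an alternative, the cause of these shifts was not tested.

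The replicate numbers did not pair the libraries, since same-numbered libraries correlated at 0.0082 to 0.129 in their deviations from the group means. With the replicate number as a block there were 5786 DEGs, and 7 of the 9 factors were DEGs, as without the block. Leaving out 1 library gave 5241 to 5914 DEGs and 7 factors each time. Depth limits *Runx1* in qHSCs, at 0 to 4 reads per library. It also limits *Mitf* in qHSC 5 and *Tfec* in qHSC 3, at 2 reads each. The 5 preparations per group limit the exact tests to 0.00794.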
